A study of Epimedium pseudowushanense with 3 samples.

Results

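In seeds of the medicinal herb Epimedium pseudowushanense, 125 of 178603 assembled transcripts were abundant, higher while the embryo grew and lower again at germination. The members were chosen by their measured values: a mean of at least 10 RPKM over the 3 libraries, a log2(RPKM + 1) at least 1 higher at the middle stage than at the first, and at least 1 lower in germinating seeds than at the middle stage. RPKM counts reads per kilobase of transcript, so levels of different transcripts can be set beside each other. It is also scaled to the mapped reads of the library. Total RNA of whole seeds was sequenced at 3 stages with 1 library each: seeds whose embryo had begun to grow (first stage), seeds whose embryo was longer than 0.5 of the seed (middle stage), and germinating seeds. Both steps and the mean entered the choice of members, so their values are a description and carry no test. Since each stage is a single library, no replicate error is known, and seed lot, library preparation and stage cannot be told apart.

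Epimedium seeds are shed with a small, underdeveloped embryo, and dormancy of this kind ends only after the embryo has grown inside the seed and a physiological block has been lifted. During that growth the embryo draws on the endosperm, the storage tissue around it, and its cells divide and expand before the root emerges. Abscisic acid keeps seeds dormant and gibberellins favour germination, and the study was set up to find genes of their metabolism and signalling. The table identifies transcripts by assembly number and pairs them with no gene name or sequence, so the roles of the 125 are not given here, and no more than 4 are named. Whether each comes from the plant or from another organism in or on the seeds was not tested. In whole seeds, a change in the number of cells of a type and a change in RNA per cell cannot be told apart.

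Most of the 125 were moderately abundant at the middle stage and low on both sides of it. At the first stage they ranged from 0 to 509 RPKM with a median of 7.33 RPKM (interquartile range 1.67 to 10.8). At the middle stage the range was 18.4 to 2171 RPKM with a median of 38.6 RPKM (27.0 to 67.5). In germinating seeds it was 0 to 206 RPKM with a median of 2.67 RPKM (1.41 to 4.63). The median levels of all 7385 transcripts with a mean of at least 10 RPKM were 18.8, 22.6 and 25.4 RPKM at the same stages. The median of the peaking transcripts lay below that median on both sides of the peak and above it at the middle stage. The rule asks for a middle level above both others and so favours this shape. Of the 125, 36 reached 10 RPKM at the first stage and 22 did in germinating seeds, and 5 and 3 were listed at 0 in those libraries. A further measure of their weight is their share of the summed RPKM, which came to 0.651%, 2.38% and 0.244% of the first, middle and germinating libraries in that order. The sums themselves differed, at 538942, 626584 and 615633 RPKM in the same order.

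**Figure D1:**
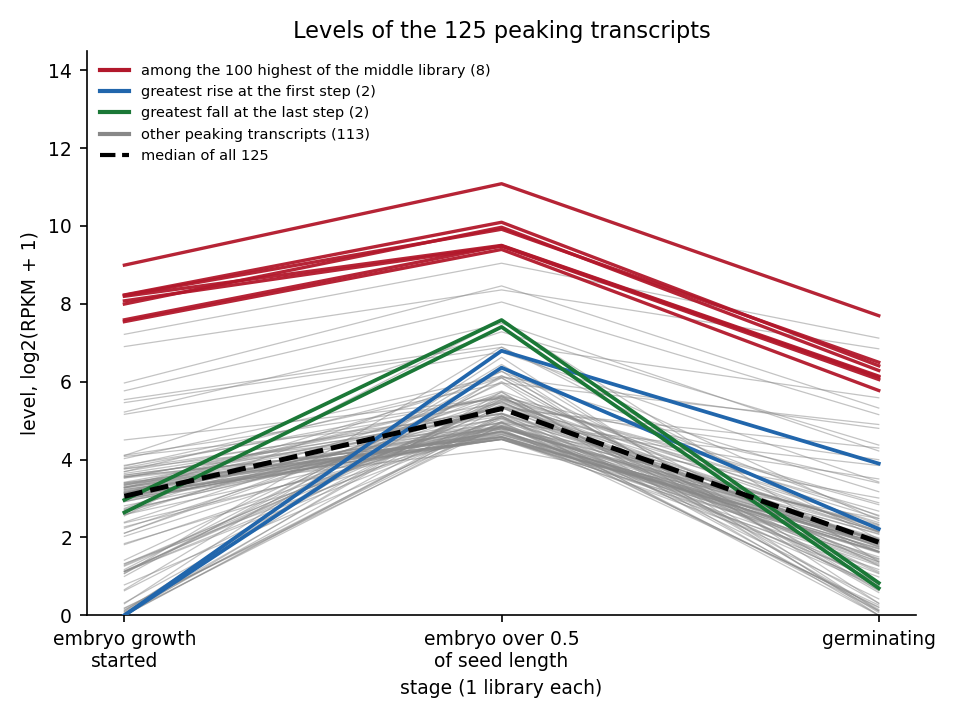
Level of each of the 125 peaking transcripts as log2(RPKM + 1) at the 3 stages, with 1 library per stage and 1 line per transcript. The 8 most abundant lines run nearly parallel, at 673 to 2171 RPKM at the middle stage, and the dashed median goes through 7.33, 38.6 and 2.67 RPKM.

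A small set carried much of this signal. Of the 125, 8 were among the 100 highest transcripts of the middle library, and together they held 65.4%, 54.0% and 47.5% of the members' summed RPKM at the first, middle and germinating stages. The most abundant had 509 RPKM at the first stage, 2171 RPKM at the middle stage, where it ranked 12 in its library, and 206 RPKM at germination, where it ranked 434. The next had 299, 1093 and 84.0 RPKM. The one after it had 254, 1000 and 77.1 RPKM. These 3 were lower in germinating seeds than at either earlier stage, and the same was true of the other 5.

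The fourth of the set had 297 RPKM at the first stage, 965 RPKM at the middle stage and 89.5 RPKM at germination. The remaining 4 lay between 185 and 292 RPKM at the first stage, between 673 and 724 RPKM at the middle stage and between 53.7 and 69.7 RPKM at germination. In all 8 the germinating level stood in a similar proportion to the middle level, at 0.0768 to 0.0963 of it. Their first-stage level varied more, at 0.234 to 0.403 of the middle level. On the log2(RPKM + 1) scale their last step ran from -3.69 to -3.36, which lies within the interquartile range of -4.14 to -2.86 over all 125. The full range over the 125 was -6.75 to -1.01.

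Members ranked 9 and 11 by middle level behaved otherwise, the second of them singled out after its values were seen. The ninth had 148, 527 and 138 RPKM at the first, middle and germinating stages, and the eleventh had 119, 327 and 114 RPKM. Both came back to nearly the level they had before the peak, with differences between germinating and first stage of -0.10 and -0.06 in log2(RPKM + 1). The tenth, with 61.6, 351 and 39.0 RPKM, was in between.

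The greatest rise at the first step was that of comp42673_c0_seq1, which was listed at 0 RPKM at the first stage and had 110 RPKM at the middle stage and 13.9 RPKM at germination. Its first step was 6.79 and its last step -2.90 on the log2(RPKM + 1) scale. The next greatest rise was that of comp40575_c0_seq1, with 0, 81.2 and 3.65 RPKM and steps of 6.36 and -4.14. Both ended above their starting level, by 3.90 and 2.22 in log2(RPKM + 1), and the first of these is the greatest difference between germinating and first stage among the 125.

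The greatest fall at the last step was that of comp40931_c0_seq1, which had 6.80 RPKM at the first stage, 191 RPKM at the middle stage and 0.78 RPKM at germination, with steps of 4.62 and -6.75 in log2(RPKM + 1). The next greatest was that of comp43414_c0_seq1, with 5.24, 169 and 0.62 RPKM and steps of 4.77 and -6.71. The values of this pair differed by less than 1.5 times at every stage. Both ended below their starting level, by differences of -2.13 and -1.95 in log2(RPKM + 1). If whole reads were counted and 1 read was worth about the same RPKM in every library, the smallest value above 0 limits what 1 read can be worth, and their middle values then rest on at least 243 and 269 reads. By the same reasoning 23 of the 125 had at least 100 reads at the middle stage, and for the others the values set no such limit.

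By the size rule of 1, 1344 of the 7385 transcripts with a mean of at least 10 RPKM (18.2%) were higher at the middle than at the first stage, and 333 (4.51%) were lower in germinating seeds than at the middle stage. The 125 members, 1.69% of the 7385, met both conditions by choice. Their median first step was 2.06 (interquartile range 1.53 to 4.07) and their median last step -3.26 (-4.14 to -2.86) in log2(RPKM + 1). The 1219 transcripts that were higher at the first step and not lower at the last had a median first step of 1.47, and the 208 that were lower at the last step without having been higher at the first had a median last step of -1.61. Both steps of the peaking transcripts were greater in the median than those of the sets that share 1 of the 2 conditions. These steps chose the sets and share the middle library, so the difference is a description and no result about the members. With 1 library per stage it could not be tested either. The fall exceeded the rise in 96 of the 125, which by arithmetic means a germinating level below the first-stage level. Of the 125, 60 rose and then fell by at least 2, and by construction no other transcript of the 7385 did.

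**Figure D2:**
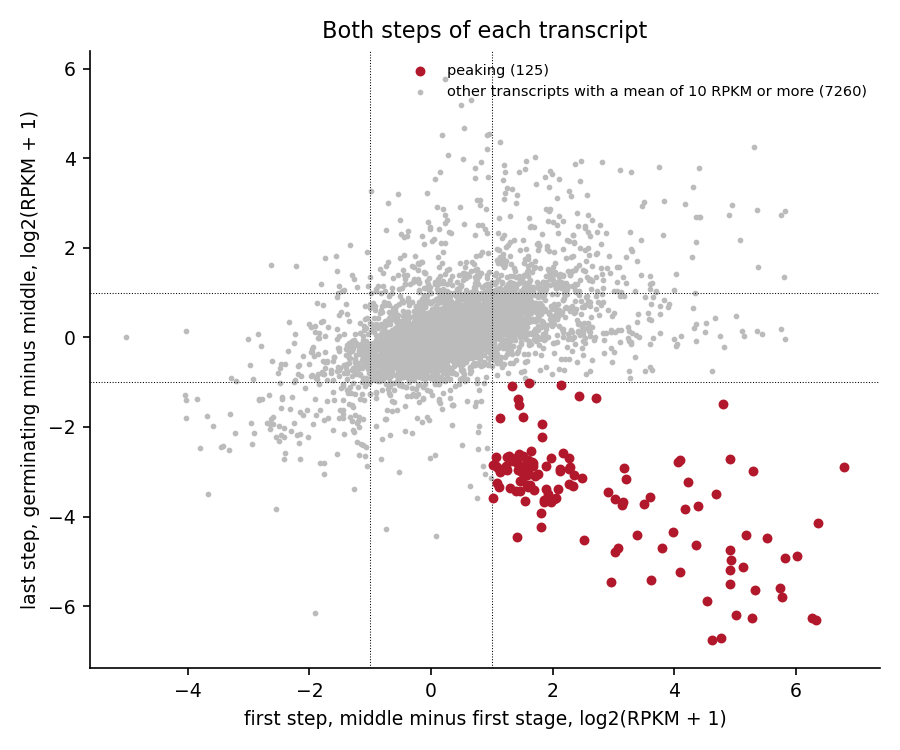
Last step against first step for the 7385 transcripts that averaged 10 RPKM or more, on the log2(RPKM + 1) scale, with the 125 peaking transcripts in red and dotted lines at 1 and -1. Most red points lie well below the line at -1, around a last step of -3.26, and 11 of the 125 lie between -1 and -2.

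The peaking transcripts made up most of the steep losses at germination and few of the shallow ones. Among transcripts with a mean of at least 10 RPKM that were lower in germinating seeds by 1 to 2, 11 of 160 (6.88%) were peaking transcripts. The share was 40 of 87 (46.0%) for falls of 2 to 3, 42 of 51 (82.4%) for falls of 3 to 4 and 32 of 35 (91.4%) for falls of 4 or more. In the class of shallow falls the median first step was -0.85, so those transcripts tended to be already lower at the middle stage, whereas in the steepest class it was 4.77. For rises at the first step the shares were lower: 61 of 950 (6.42%) for rises of 1 to 2, 19 of 240 (7.92%) for 2 to 3, 13 of 82 (15.9%) for 3 to 4 and 32 of 72 (44.4%) for 4 or more. Within a class of falls the members are the transcripts that rose by at least 1 at the first step, as 18.2% of all 7385 did. Within a class of rises they are those that fell by at least 1 at the last, as 4.51% of the 7385 did. Both steps use the middle library, and an error there would move them in opposite directions. The shares therefore follow at least in part from the choice of members. How far they do cannot be told with 1 library per stage, so they are a description and no result about the members.

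**Figure D3:**
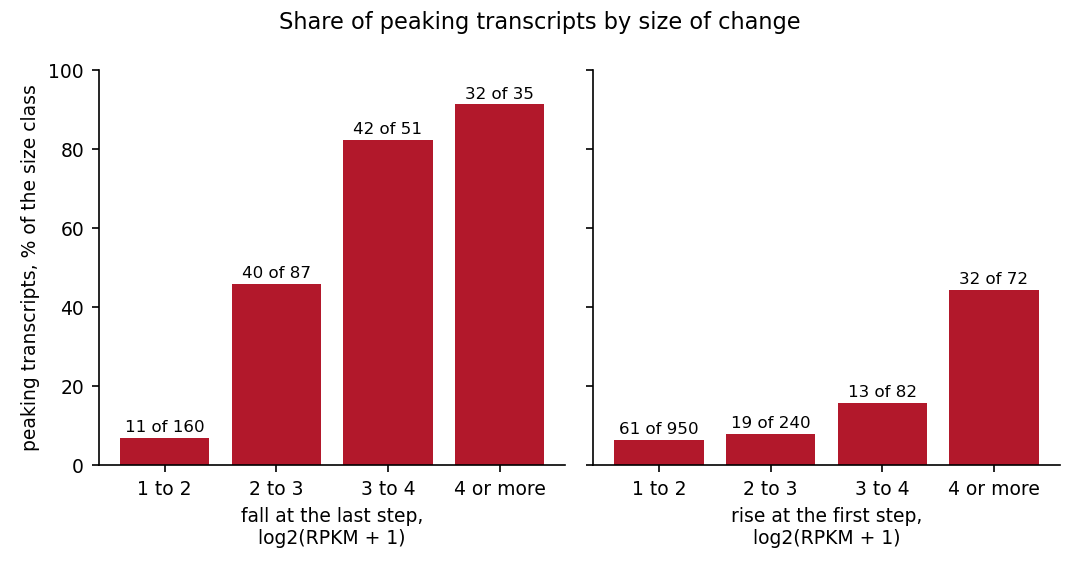
Peaking transcripts as a percentage of all transcripts with a mean of at least 10 RPKM, by the size of the fall at the last step (left) and of the rise at the first step (right), with counts above the bars. For falls the share goes from 6.88% in the smallest class to 91.4% in the greatest, and for rises from 6.42% to 44.4%.

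The levels on both sides of the peak were unevenly spread. The germinating level was between 0.05 and 0.15 of the middle level in 77 of the 125, under 0.05 in 36 and 0.15 or more in 12. Counted in intervals of 0.02, the fullest was that from 0 to 0.02 with 24 members. The next 2 intervals held 7 and 14, those from 0.08 to 0.1 and from 0.1 to 0.12 held 23 and 21, and those from 0.14 to 0.18 together held 1. Among all transcripts with a mean of at least 10 RPKM, 56 had a germinating level of 0.08 to 0.12 of the middle level, and 44 of these were members. From 0.14 to 0.18 there were 16. A high share of members was not particular to 0.08 to 0.12. It was 24 of 25 from 0 to 0.02, 7 of 9 from 0.02 to 0.04, 14 of 16 from 0.04 to 0.06 and 11 of 16 from 0.06 to 0.08. So low a ratio goes with the fall that the rule asks for, so these shares follow in part from the choice of members. At the first step 18.2% of all 7385 rose by at least 1. Weaker transcripts that were higher at the first step, with a mean of 3 to 10 RPKM, were spread otherwise: their counts were 137, 67, 53, 36, 41, 25 and 18 in the 7 intervals from 0 to 0.14. The ranges singled out here were chosen after the values had been seen.

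The largest set, 54 transcripts, kept 0.2 or more of the middle level at the first stage and 0.05 to 0.15 of it at germination. It included all 8 of the most abundant, but its median middle level was only 27.5 RPKM. Its first-stage level was in the median 0.318 of the middle level (interquartile range 0.277 to 0.363) and its germinating level 0.0965 of it (0.0822 to 0.112). The middle levels in this set ran from 21.8 to 2171 RPKM. Since these ratios define the set, their closeness within it is no result. The minimum of 10 RPKM for the mean bears on these sets, since a member under 30 RPKM at the middle stage passes it only with some level at the other stages. Of the 45 such members, 38 had a germinating level of 0.05 to 0.15 of the middle level and 4 were under 0.05. Of the 68 members from 30 to 200 RPKM, which pass through the middle library alone, the counts were 29 and 32.

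A second set of 28 was close to absent on both sides, with under 0.1 of the middle level at the first stage and under 0.05 of it at germination. Their levels were 0 to 6.80 RPKM at the first stage (median 1.105), 29.4 to 191 RPKM at the middle stage (median 52.2) and 0 to 3.65 RPKM at germination (median 0.53). Both transcripts with the greatest fall, comp40931_c0_seq1 and comp43414_c0_seq1, belong here, and none of the 28 was among the 100 highest of the middle library. Another set of 14 was also under 0.1 of the middle level at the first stage but stayed at 0.05 to 0.15 of it at germination, with medians of 1.34, 40.5 and 2.96 RPKM at the first, middle and germinating stages. The 12 members with 0.15 or more of the middle level at germination had medians of 11.9, 44.0 and 16.8 RPKM at the same stages, and their difference between germinating and first stage ran from -0.65 to 3.33 in log2(RPKM + 1).

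**Figure D4:**
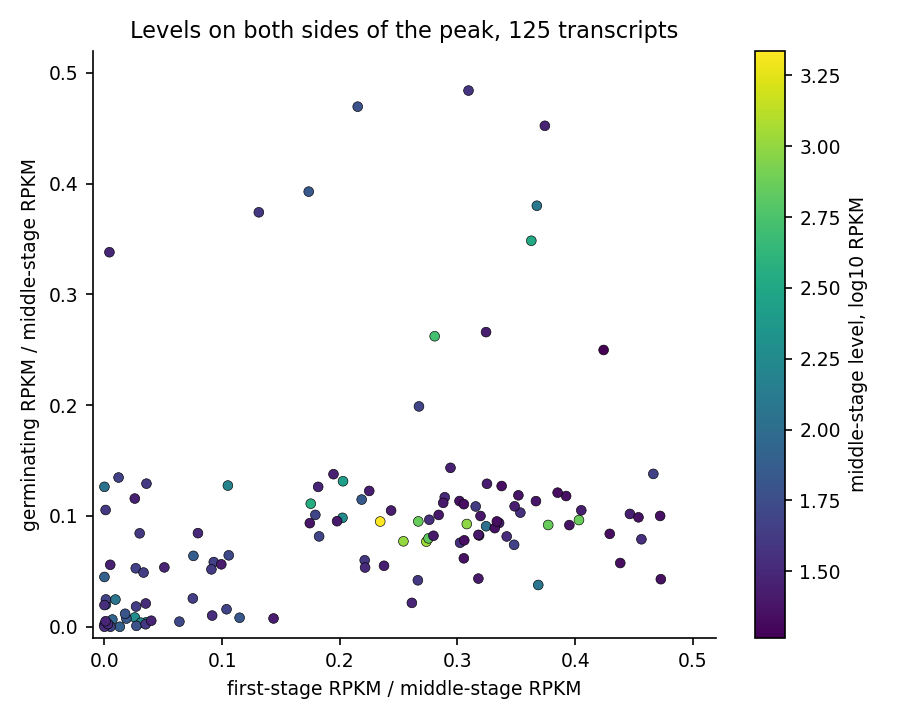
First-stage level (horizontal) and germinating level (vertical) of each of the 125 peaking transcripts as a ratio to its own middle-stage level, coloured by the middle-stage level in log10 RPKM. A band near a germinating ratio of 0.1 holds the 8 most abundant transcripts, a second group lies at the origin, and 12 transcripts lie at or above 0.15 on the vertical axis.

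In 96 of the 125 members (76.8%) the germinating level lay below the first-stage level by any size, with values as deposited. These are the same 96 whose fall exceeded their rise, and the share over all 7385 was not counted. In germinating seeds 66 of the 125 (52.8%) were lower than at the first stage by at least 1 in log2(RPKM + 1), 13 (10.4%) were higher by at least 1 and 46 (36.8%) were within 1. Over all 7385 transcripts with a mean of at least 10 RPKM the shares ran the other way, with 9.83% lower and 28.6% higher. The median difference was -1.11 for the peaking transcripts and 0.38 for the 7385. With the libraries rescaled by median-of-ratios factors, trimmed means or equal sums, 58, 55 and 70 of the 125 were lower by at least 1. In the same order 15, 15 and 11 were higher by at least 1. Whether a majority fell that far below the first stage thus depended on the scaling. These values come from the libraries that chose the members, so they are a description. The rule asks for a rise and a fall of the same minimum size, and so favours low levels both at the first stage and at germination. The lowest difference, -3.03, was that of a transcript with 43.1, 117 and 4.41 RPKM at the first, middle and germinating stages. Of the 125, 17 dropped under 1 RPKM only in germinating seeds, 9 were under 1 RPKM only at the first stage and 9 were under 1 RPKM at both.

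The mirrored shape was rarer. With the same minimum and size rule, 16 transcripts (0.217% of the 7385) were lower at the middle stage and then higher, with median levels of 27.2, 9.49 and 25.03 RPKM at the first, middle and germinating stages. None of the 16 changed by 2 or more at both steps. The excess of peaks over troughs depended on the scaling between libraries: it was 101 to 30 with median-of-ratios factors, 91 to 40 with trimmed means, 108 to 26 with equal sums, and turned to 56 against 79 when the middle library alone was divided by 1.5. These scalings moved the median first step of the 7385 transcripts, 0.30 as deposited, to 0.19, 0.10 and 0.10 in that order, and the median last step, 0.08 as deposited, to 0.40, 0.57 and 0.11. All the peaks found with each of the 3 factors, and all 56 with the divided library, were among the 125.

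The share of peaks was greater in the classes from 0.3 to 10 RPKM than in those at 10 RPKM or more, with no single direction within either range. Of transcripts with a mean of 10 to 30 RPKM, 99 of 4563 (2.17%) were members, against 14 of 2035 (0.688%) from 30 to 100 RPKM and 12 of 787 (1.52%) at 100 RPKM or more. The same two-step rule below the minimum was met by 430 of 7529 transcripts (5.71%) from 3 to 10 RPKM by 1309 of 9360 from 1 to 3 RPKM and by 5738 of 48016 from 0.3 to 1 RPKM, none of which are members. Of the 5738 from 0.3 to 1 RPKM, 4500 were listed at 0 in germinating seeds and 3555 at the first stage. Their median middle level was 1.4 RPKM. Of the 1309 from 1 to 3 RPKM, 351 were listed at 0 in germinating seeds, against 3 of the 125 members. How many reads such low values rest on cannot be told, so the shares in the low classes carry less weight. The median last step was -3.15 for the members from 10 to 30 RPKM, -3.30 for those from 30 to 100 RPKM and -3.38 for those at 100 RPKM or more. For the weaker peaks it was -3.01 from 3 to 10 RPKM, -2.03 from 1 to 3 RPKM and -1.22 from 0.3 to 1 RPKM, on a log2(RPKM + 1) scale that limits the fall of low transcripts.

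**Figure D5:**
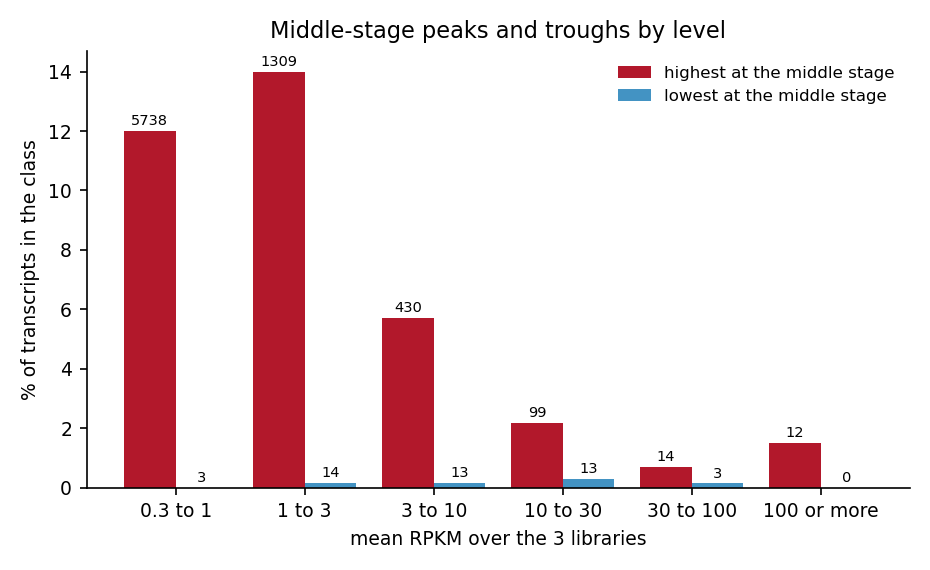
Percentage of transcripts highest (red) or lowest (blue) at the middle stage by at least 1 in log2(RPKM + 1) at both steps, by mean RPKM over the 3 libraries, with counts above the bars. The 3 classes from 10 RPKM upward hold the 125 members (99, 14 and 12) and the 16 transcripts of the mirrored shape.

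Some members lay close to a limit of the rule. The member with the lowest mean had 10.05 RPKM (2.59, 26.1 and 1.47 RPKM at the first, middle and germinating stages), and the nearest transcript of the same shape under the minimum had 9.94 RPKM (8.76, 18.8 and 2.28 RPKM). There were 20 members under 11 RPKM, and 31 transcripts of the same shape from 9 to 10 RPKM. At the first step the smallest difference among members was 1.01 and the nearest outside was 0.99. At the last step they were -1.01 and -0.99. Only 5 members had a first step under 1.1 and 3 a fall under 1.1.

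The identifiers hold numbers that the choice of members did not use. They have the form of de novo assemblies, with a component, a subcomponent and a sequence number, and 177404 distinct component numbers cover the 178603 rows. Among the 125, 16 (12.8%) shared their component number with another row, against 7.23% of the 7385 transcripts with a mean of at least 10 RPKM. Only 1 component held 2 members: they had 36.3 and 192 RPKM at the first stage, 179 and 719 RPKM at the middle stage and 17.6 and 68.3 RPKM at germination, and so had nearly the same germinating ratio of 0.0983 and 0.0951. The other 14 components each held 1 further row, of which 11 had a mean of at least 1 RPKM. Of these 11, 2 met the two-step rule (18.2%) and 5 were highest at the middle stage (45.5%), against 7.68% and 29.0% of the 24275 transcripts of the table with such a mean. In 1 of these components the member had 43.1, 117 and 4.41 RPKM while the other row had 811, 455 and 399 RPKM. The sources used here do not say whether rows with a shared number belong to 1 gene.

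There were also 2 pairs of members with consecutive component numbers. In 1 pair the levels matched closely, with 1.20 and 1.44 RPKM at the first stage, 45.1 and 43.3 RPKM at the middle stage and 2.38 and 2.12 RPKM at germination. In the other they did not, with 1.67 and 15.9, 61.4 and 34.8, and 0.05 and 2.75 RPKM at the same stages. The median component number was 43709 for the members and 42458 for the 7385 transcripts, and the interquartile ranges overlapped (35925 to 49633, and 34004 to 48512).

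Across the whole table, the first, middle and germinating libraries listed 134657, 148343 and 87582 transcripts above 0 RPKM in that order, so the middle library also held the most transcripts overall. The part of this difference in the 125 peaks was not tested. The most common value above 0 was 0.26, 0.25 and 0.27 RPKM in the 3 libraries.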

How the data were processed

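The authors deposited 1 table of RPKM values, printed to 2 decimals, with 1 column per library. RNA was extracted with TRIzol and sequenced as paired-end Illumina HiSeq libraries, per the labels' protocols. R 3.1.0 is named in the submitters' processing notes. Assembler, aligner, counting rule and filters were not given in the sources used here. Columns were assigned to libraries by their names, which equal the sample titles, and libraries to stages by the labelled developmental stage. The depth in reads is unknown.

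Differences were computed on log2(RPKM + 1), a pseudocount of 1 that understates the change of low transcripts. Differences of exactly 1 counted as reached. No p-value was computed. Named by identifier are the 2 members with the greatest rise at the first step and the 2 with the greatest fall at the last; the 10 most abundant, the members nearest to each threshold and those with the extreme end differences are given by value only. The members, lists and intervals were chosen with earlier results of these data known. Gene lists were not used for lack of names. How the size rule and the scaling factors perform under variation between libraries of the same stage was not tested, since each stage had 1 library. Python 3.11.15, numpy 2.4.6, pandas 2.3.3 and matplotlib 3.10.9 were used.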

Additional observations from a re-analysis of the deposited data

How the results depend on the processing

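Of 39 recomputed values, 17 lay within 1.5 times of the reported value and 22 moved further. Of peaks there were 125 and of troughs 16. With a mean of at least 1 RPKM there were 1865 peaks and 43 troughs, with 30 RPKM 26 and 3, and with no minimum 7602 and 46. With 10 RPKM required in the highest library only, there were 424 peaks. A size rule of 2 left 60 and 0. Scaling the middle library to 0.8 of its values gave 82 and 39, and dividing it by 1.5 gave 56 and 79. Troughs alone moved with a pseudocount of 5 (6), median-of-ratios factors (30), trimmed means (40), equal sums (26) and, an alternative chosen after seeing the data, the germinating library scaled to 0.8 of its values (9). Higher and lower minimums change the counts by construction. Dividing the middle library alone lowers first steps and raises last steps, which works against peaks and toward troughs by construction. Median-of-ratios factors, trimmed means and equal sums also divided the middle library by a greater factor than either other library. Which scaling suits these libraries was not tested. At germination 41 of the peaks chosen with a mean of 1 RPKM or more exceeded their first-stage level by the size rule and 246 were below it, and of those chosen with 30 RPKM 3 and 14. Without the most abundant transcript the peaks held 0.729%, 2.54% and 0.259% of the summed RPKM at the first, middle and germinating stages. No paired analysis was possible because each stage had 1 library, and no library could be left out for the same reason. Depth in reads and transcript lengths are unknown, so how many reads a low value rests on cannot be told.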
